A study of Mus musculus with 32 samples.

Results

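The second phase of the LPS response, from 5 h to 18 h, was examined in wild-type bone marrow-derived macrophages (BMDM-WT). The comparison rests on the 4 BMDM-WT libraries at 5 h and the 4 at 18 h, chosen by genotype and time alone, which are 8 of the 32 RNA-seq libraries of the series. The cells came from bone marrow of male C57Bl6/J mice of 6 to 12 weeks, cultured for 7 days with L929-conditioned medium and then given 100 ng/ml LPS. The other 24 libraries are BMDM-WT at 0 and 1 h and BMDM-Nur77-KO at the same 4 times (0 and 1 h as well as 5 and 18 h), 4 per group. Unstimulated cells were sampled at 0 h only, so effects of LPS and of time in culture cannot be told apart at later times. In Nur77-KO mice, the loxP-flanked Nr4a1 gene had been removed in the whole body by Cre under the CMV promoter, and Cre was bred out afterwards. The wild-type animals were littermates, and the labels name the knockout genotype cre. Wells were seeded in 4 replicates, and the number of animals behind them is not given, so p-values measure the spread between these samples only.

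LPS, a cell wall component of Gram-negative bacteria, is sensed by TLR4, which signals through MyD88 to NF-kB and AP-1 and through TRIF to IRF3 and type I interferon. The first wave of transcripts codes for transcription factors, cytokines and their inhibitors, and interferon secreted by the cells then drives a second wave through its receptor. Macrophages later shut off many inflammatory genes, become tolerant to further LPS, and raise genes for acute-phase proteins, antioxidant defence and inhibitory receptors.

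The 8 libraries held 10206035 to 12418867 counts after 1 transcript per gene was kept. The 18 h replicate 3 stood apart from the other 3 libraries of its group: the chi-square per degree of freedom against them was 16.2 to 23.9, against 1.92 to 4.17 among those 3 and 2.57 to 7.95 among the 5 h libraries. All 12 macrophage markers checked were above 1 CPM (counts relative to library size, scaled for library composition) in both groups, with a summed level of 19367 to 21115 CPM at 5 h and 15318 to 16229 CPM at 18 h. The 11 neutrophil markers summed to 40.2 to 56.5 CPM at 5 h and 19.6 to 24.2 CPM at 18 h, with Ly6g at 0 in both groups, and their part in the results was not tested. No other marker list summed to more than 28.1 CPM in a library of either group. Nr4a1, the gene deleted in the knockout, was at 0.797 to 1.06 CPM in BMDM-WT at 5 h and at 0.174 to 0.477 CPM at 18 h, after 358 to 485 CPM at 1 h. In BMDM-Nur77-KO, the Nr4a1 transcript kept in the counts still had 146 to 243 CPM at 1 h, and which exons these counts cover is not given.

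Of 11279 genes tested, 1608 (14.3%) were lower and 1791 (15.9%) were higher at 18 h than at 5 h in BMDM-WT, 30.1% of genes in all. A gene was called when its log2 fold change was over 1 either way, that is, over 2-fold, with an adjusted p under 0.05 in edgeR's quasi-likelihood test, and rose and fell are used for such genes only. At an adjusted p under 0.05 and any size of change, 69.1% of genes passed. The values of both groups did not overlap for 7531 genes (66.8% of all tested), so a separation of 4 and 4 libraries was the rule rather than the exception. Falls of more than 8-fold were called for 277 genes and rises of this size for 149. Without 18 h replicate 3, 3483 genes were called in place of 3399, and 3265 of them were shared, none with another direction. Scaling to library totals moved the median log2 fold change of all genes from 0.03 to 0.30 and the calls to 1180 lower and 2515 higher, that is, from 52.7% to 68.1% higher. Changes below are on the composition-scaled values.

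Most genes induced at 1 h fell between 5 h and 18 h. At 1 h, 387 genes (3.43% of those tested) were induced in BMDM-WT, chosen without any library of the 5 h and 18 h groups. Of these, 225 (58.1%) fell from 5 h to 18 h, 27 (6.98%) rose and 135 (34.9%) did neither, with a median log2 fold change of -1.35. The 198 genes lower at 1 h (1.76% of those tested) went the other way, as 102 (51.5%) rose and 3 (1.52%) fell. The same split was seen when the genes were chosen at 5 h in the BMDM-Nur77-KO libraries, a choice added after the data were seen: of 1806 induced genes (16.0%), 753 (41.7%) fell and 136 (7.53%) rose in BMDM-WT, and of 1874 lowered genes (16.6%), 174 (9.28%) fell and 954 (50.9%) rose. The cumulative plot by earlier response gives the whole distributions.

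**Figure D1:**
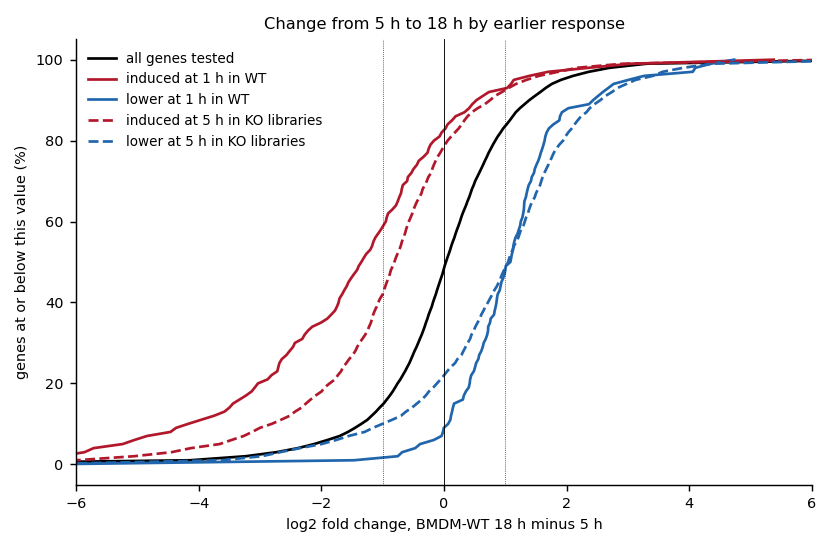
Cumulative share of genes (y axis, percent) by their log2 fold change from 5 h to 18 h in BMDM-WT (x axis), for all 11279 genes and for genes induced or lowered earlier; dotted lines mark the fold limit. The curves of early induced genes lie to the left of all genes (median -1.35 for those of 1 h) and those of early lowered genes to the right (median 1.08 for those of 1 h).

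Levels before stimulation show which of these changes were a return. The counts in this paragraph describe mean CPM, use the 5 h or 18 h libraries again and carry no test. They also rest on the composition scaling, with factors of 1.21 to 1.27 in the BMDM-WT libraries at 0 h and 0.782 to 0.802 at 5 h. These classes were not recounted with library totals, under which genes can change class. Among the 1608 genes that fell, 769 had been over 2 times their 0 h mean at 5 h. Of these, 441 were within 2-fold of the 0 h mean at 18 h, 263 were still more than 2 times above it, and 65 had gone under 50% of it. Another 509 genes that fell were within 2-fold of the 0 h mean at 5 h and under 50% of it at 18 h. On this scaling, their fall was a late loss and not a return. Among the 1791 genes that rose, 1064 had been under 50% of the 0 h mean at 5 h, and 874 of these were within 2-fold of it at 18 h. The 5 h mean was within 2-fold of the 0 h mean for 594 genes that rose, of which 253 ended more than 2 times above it, and 133 genes that rose were already more than 2 times above 0 h at 5 h.

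**Figure D2:**
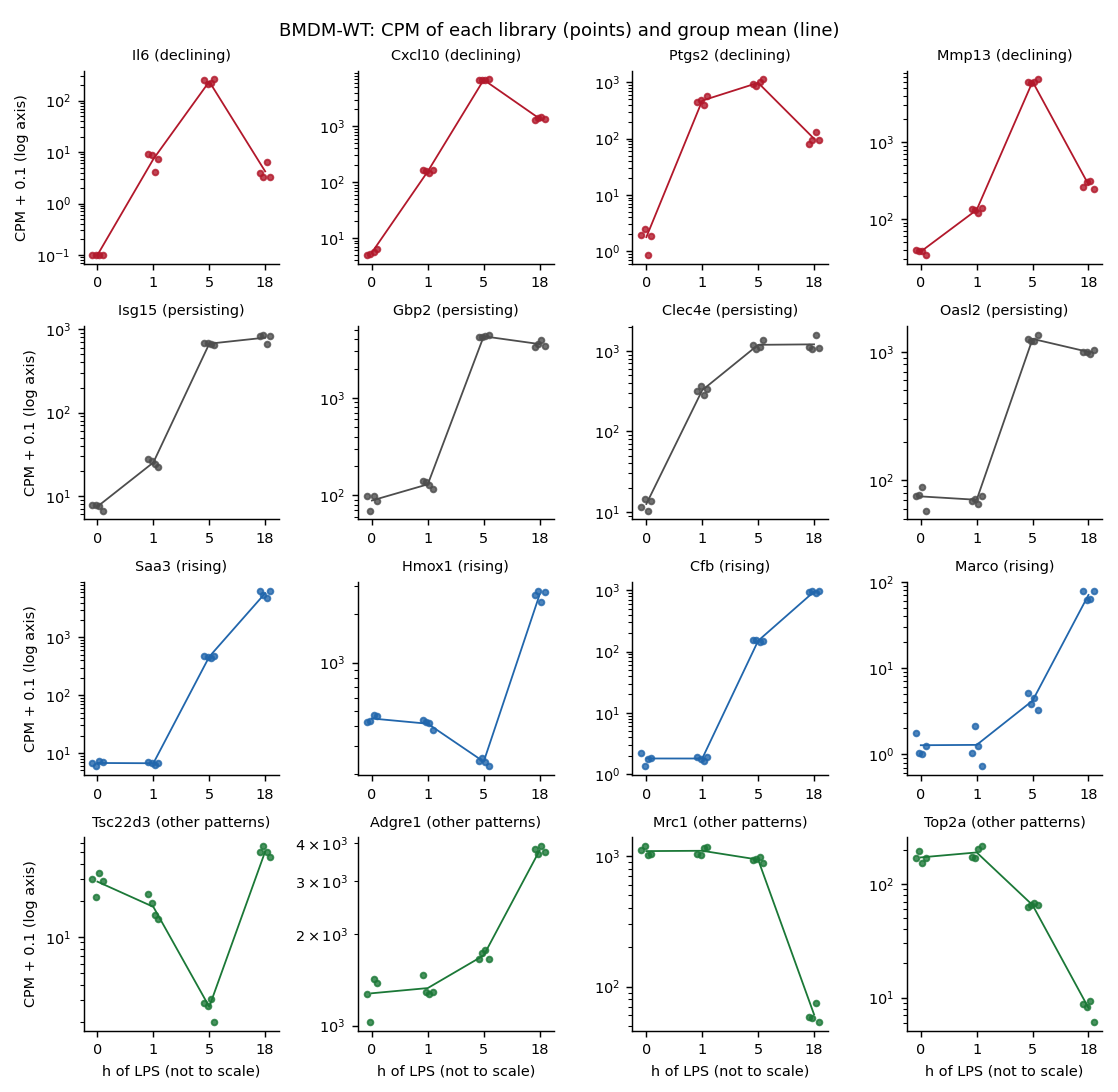
CPM plus 0.1 on a log axis (y) at 0, 1, 5 and 18 h of LPS (x, not to scale) for 16 genes in BMDM-WT, where points are the 4 libraries of a time and lines join their means. The rows show genes that fell, persisted or rose after 5 h, as Il6 from 234 to 4.11 CPM and Saa3 from 464 to 5818 CPM, and a last row with a dip (Tsc22d3), a rise (Adgre1) and losses (Mrc1, Top2a).

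Proximal promoters of 4 genes that the results below turn on are printed here, 2 from genes that fell (Il6, Cxcl10) and 2 from genes that persisted (Isg15, Gbp2). They are RefSeq sequences of GRCm38.p6, from 250 bases before to 50 bases after the start of the gene, written 5′ to 3′ on the strand of the gene. Capitals mark letters of the NF-kB motif (GGGA and TTCC with any 2 bases between), the interferon response element (ISRE, GAAA and GAAA with any 2 bases between) and the AP-1 motif TGANTCA, searched on both strands.
Il6, chr5:30012864-30013163, plus strand: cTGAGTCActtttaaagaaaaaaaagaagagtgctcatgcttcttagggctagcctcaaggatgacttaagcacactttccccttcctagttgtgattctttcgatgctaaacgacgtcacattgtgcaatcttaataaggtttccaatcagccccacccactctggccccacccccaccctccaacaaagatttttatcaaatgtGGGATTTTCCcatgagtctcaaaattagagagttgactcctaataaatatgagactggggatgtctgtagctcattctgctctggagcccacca
Cxcl10, chr5:92348840-92349139, minus strand: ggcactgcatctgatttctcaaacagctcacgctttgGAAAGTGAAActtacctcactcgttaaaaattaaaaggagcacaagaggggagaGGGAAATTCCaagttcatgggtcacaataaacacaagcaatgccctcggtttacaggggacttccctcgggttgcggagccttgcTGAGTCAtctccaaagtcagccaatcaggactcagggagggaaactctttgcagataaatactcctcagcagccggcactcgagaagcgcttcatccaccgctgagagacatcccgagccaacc
Isg15, chr4:156200769-156201068, minus strand: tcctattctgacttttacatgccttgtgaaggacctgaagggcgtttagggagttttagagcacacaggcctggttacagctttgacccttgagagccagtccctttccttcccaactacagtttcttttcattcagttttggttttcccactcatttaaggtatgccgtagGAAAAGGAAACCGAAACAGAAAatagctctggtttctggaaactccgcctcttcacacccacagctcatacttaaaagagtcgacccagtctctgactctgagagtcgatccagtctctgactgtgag
Gbp2, chr3:142620413-142620712, plus strand: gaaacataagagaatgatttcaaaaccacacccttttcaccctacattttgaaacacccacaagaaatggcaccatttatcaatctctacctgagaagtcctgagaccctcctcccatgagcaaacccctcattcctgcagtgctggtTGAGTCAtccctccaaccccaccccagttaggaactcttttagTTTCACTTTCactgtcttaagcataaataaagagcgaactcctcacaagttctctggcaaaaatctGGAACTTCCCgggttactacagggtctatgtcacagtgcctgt

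The NF-kB letters begin 44 bases before the start of Il6 and 159 bases before that of Cxcl10, and both promoters hold AP-1 letters. The promoter of Cxcl10 also holds ISRE letters. In Isg15, 3 overlapping matches of the ISRE letters run on from each other, beginning 78, 72 and 66 bases before the start. In Gbp2, the ISRE letters begin 59 bases before the start, on the other strand, and this promoter also holds the NF-kB and the AP-1 letters. Among all 32851 promoters of this length, 1.47% held the NF-kB letters, 3.44% the ISRE letters and 7.81% the AP-1 letters. Among the 11322 promoters of the tested genes, from which the calls came, these shares were 1.55%, 3.40% and 5.26%. Promoters were given for 1256 of the 1608 genes that fell, and 2.12% of their 1653 promoters held the NF-kB letters, 4.05% the ISRE letters and 7.99% the AP-1 letters. For the 1442 of 1791 genes that rose these shares were 1.25%, 2.92% and 5.90%. Of the 101 promoters of 75 of the 98 persisting genes defined below, 3.96% held the NF-kB letters, 18.8% the ISRE letters and 9.90% the AP-1 letters, in order 4, 19 and 10 promoters. Persisting genes had to be over 4-fold above 0 h, unlike the other sets. The shares among all 920 genes induced over 4-fold at 5 h were not counted, so persistence and strong induction cannot be told apart here. These shares are descriptions, and a match is not a site of binding.

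Most secreted mediators of acute inflammation fell. Among the inflammatory cytokines, 20 of 21 listed genes were tested, 14 fell and none rose, with a median log2 fold change of -2.36 beside 0.03 for all genes. Il6, a cytokine that drives fever and the acute-phase response, had 248, 208, 223 and 258 CPM in the 5 h libraries and 3.75, 3.24, 6.26 and 3.19 CPM in the 18 h libraries. The lowest 5 h library was above the highest 18 h library, replicate 3, and 1.76% of the 5 h mean was left (log2 fold change -5.82 ± 0.25 SE, adjusted p = 1.8e-16). Tnf, the early cytokine that activates endothelium, had 1309, 1321, 1348 and 1322 CPM at 5 h and 270, 290, 254 and 294 CPM at 18 h. No library of either group was close to the other group, and the log2 fold change was -2.26 ± 0.13 (SE, adjusted p = 7.2e-16). Tnf had already passed its highest level, with a mean of 3731 CPM at 1 h.

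Il1b, the precursor of the inflammasome product IL-1β, had 1958, 2027, 1992 and 1986 CPM at 5 h and 178, 173, 166 and 186 CPM at 18 h. The groups were more than 10 times apart (means 1991 ± 28.2 and 176 ± 8.53 CPM, SD, n = 4), and the counts can include reads of the overlapping transcript Il1bos. Il12b, the shared subunit of IL-12 and IL-23, fell to 12.2% of its 5 h mean, and Tnfsf15, a TNF family ligand, to 7.42%. Il10, the main anti-inflammatory cytokine of macrophages, fell as well, from 32.7 ± 5.09 to 5.93 ± 0.972 CPM, after 208 CPM at 1 h. The IL-1 receptor antagonist Il1rn was among those that did not pass the fold limit, with 3322 ± 154 CPM at 5 h and 2076 ± 245 CPM at 18 h (log2 fold change -0.68 ± 0.14). Ifnb1, which encodes interferon-β, had 4.04 ± 0.944 CPM at 5 h and 2.15 ± 0.219 CPM at 18 h, also within the limit except without 5 h replicate 4 (log2 fold change -1.05).

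Of 20 chemokine genes tested out of 21, 15 fell and 1 rose (median -2.30). Cxcl2, a neutrophil attractant, had 90.5, 90.6, 109 and 115 CPM at 5 h and 7.69, 6.20, 7.74 and 6.73 CPM at 18 h. Its groups were far apart, with a log2 fold change of -3.83 ± 0.10 (SE, adjusted p = 3.0e-24), although its highest mean, 2054 CPM, was at 1 h. Cxcl10, an interferon-induced ligand of CXCR3 on T cells, had 6685, 6683, 6856 and 6883 CPM at 5 h and 1282, 1408, 1443 and 1327 CPM at 18 h. It fell by 2.31 ± 0.09 on the log2 scale and at 18 h was still well above its 5.43 CPM at 0 h. Of the monocyte attractants, Ccl2 fell to 26.7% of its 5 h mean, and Ccl3 and Ccl4, neighbours whose transcripts overlap in the annotation, fell to 10.6% and 7.84%.

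Ccl5, which attracts T cells and monocytes, was the chemokine that rose. Its libraries had 1885, 2003, 1916 and 1795 CPM at 5 h and 4236, 4264, 3355 and 4292 CPM at 18 h. Replicate 3 was the lowest at 18 h and still above all 5 h libraries, and the log2 fold change was 1.09 ± 0.18 (SE, adjusted p = 4.2e-06). Cxcl16, a membrane-bound ligand that also takes up oxidized lipoprotein, was among the persisting genes with 555 ± 7.90 and 557 ± 36.8 CPM. Cxcl9 did not pass the test (868 ± 17.0 and 545 ± 37.9 CPM, adjusted p = 0.097). These SDs are of the 5 h and 18 h groups, whereas the test uses 1 estimate of the spread shared by all 8 groups.

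**Figure D3:**
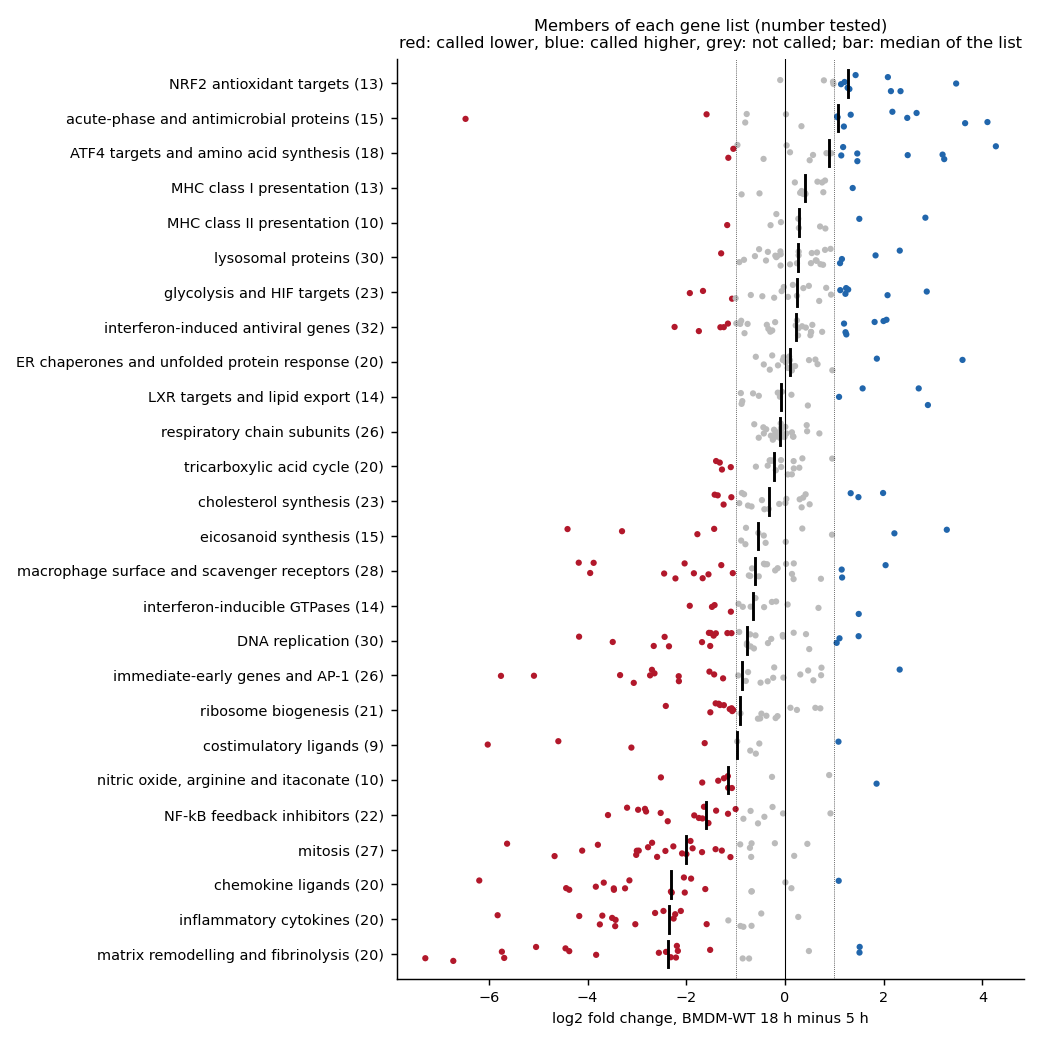
Log2 fold change from 5 h to 18 h in BMDM-WT (x axis) of every tested member of 26 gene lists (y axis, number tested in brackets), ordered by the list median. Red points fell, blue points rose, grey points were not called, black bars are medians and dotted lines mark the fold limit. Lists of matrix remodelling, cytokines and chemokines are at the low end (medians -2.36, -2.36 and -2.30), and NRF2 targets and acute-phase proteins at the high end (1.27 and 1.06).

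Feedback genes of inflammatory signalling mostly fell with the cytokines. The list, named NF-kB feedback inhibitors in the figure, is wider than its name. It also holds inhibitors of cytokine receptors, MAP kinase phosphatases, an mRNA-destabilizing protein and a nuclear cofactor. All 22 listed genes were tested, and 15 fell and none rose (median -1.60). Tnfaip3, which encodes the ubiquitin-editing enzyme A20, had 1596, 1586, 1656 and 1655 CPM at 5 h and 186, 217, 214 and 207 CPM at 18 h. The spread within either group was small beside the fall of 2.98 ± 0.06 on the log2 scale (adjusted p = 2.2e-26). Nfkbia (IκBα) fell to 34.1% of its 5 h mean, Nfkbiz (IκBζ, a nuclear cofactor for Il6) to 10.9%, Socs3, an inhibitor of cytokine receptors, to 14.2%, and the MAP kinase phosphatase gene Dusp1 from 333 to 126 CPM. Zfp36, which encodes the mRNA-destabilizing protein tristetraprolin, fell to 44.9%, and this call is lost with scaling to library totals. Irak3, an inhibitor of TLR signalling known from tolerant cells, had 59.1 ± 3.93 CPM at 5 h and 112 ± 5.79 CPM at 18 h (log2 fold change 0.92 ± 0.15, adjusted p = 2.1e-06). It did not reach the fold limit, except with scaling to library totals, and Cyld, a deubiquitinase, had 92.7 ± 6.35 and 90.2 ± 14.8 CPM.

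Of 26 immediate-early and AP-1 genes, all tested, 12 fell and 1 rose (median -0.87). Egr2, a zinc-finger factor, had 38.6, 35.9, 34.5 and 39.0 CPM at 5 h and 0.366, 1.05, 0.609 and 0.691 CPM at 18 h. The 18 h level was 1.83% of that at 5 h and was also below the 121 CPM at 0 h. Egr1 and Egr3 fell in the same way, to 15.0% and 9.70%, as did the nuclear receptor gene Nr4a3, to 2.79%. Nr4a1 had 0.797, 0.979, 0.888 and 1.06 CPM at 5 h and 0.366, 0.477, 0.174 and 0.259 CPM at 18 h, below the 19.7 CPM at 0 h in both groups (log2 fold change -1.53 ± 0.54, adjusted p = 0.014). Nr4a2 did not pass the test (3.15 ± 0.529 and 2.23 ± 0.369 CPM, adjusted p = 0.095). Klf2, a factor known to restrain macrophage activation, was the member that rose, from 1.93 ± 0.895 to 9.76 ± 1.52 CPM.

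Most genes of matrix proteases and of fibrinolysis fell. Of 20 tested genes of matrix remodelling and fibrinolysis, out of 22 listed, 15 fell and 2 rose (median -2.36). Mmp13, a collagenase, had 6090, 5822, 6038 and 6548 CPM at 5 h and 262, 303, 313 and 245 CPM at 18 h. Every 18 h library was under the lowest 5 h library by more than 10 times, and the log2 fold change was -4.45 ± 0.12 (SE, adjusted p = 9.1e-24). Plaur, the urokinase receptor, fell to 4.83% and Serpinb2, an inhibitor of urokinase, to 2.95%. F3, which encodes tissue factor, the initiator of coagulation, had 132 to 182 counts in the 5 h libraries and at most 3 counts in the 18 h libraries (adjusted p = 4.5e-21). Mmp19 and F10 were the members that rose, with log2 fold changes of 1.51 ± 0.09 each, F10 encoding coagulation factor X.

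The 15 steepest falls with at least 10 CPM at 5 h held further surface and secreted proteins. Hbegf, an EGF receptor ligand, had 88.4, 82.0, 96.3 and 91.6 CPM at 5 h and 0.275, 0.572, 0.522 and 0.432 CPM at 18 h (log2 fold change -7.61 ± 0.17, adjusted p = 3.5e-25). Its 18 h libraries were also below the 28.2 CPM at 0 h. Olr1, the oxidized LDL receptor LOX-1, had 250, 244, 270 and 285 CPM at 5 h and 1.65, 1.33, 2.09 and 2.16 CPM at 18 h beside a mean of 0.547 CPM at 0 h. Tnfsf4, the T cell ligand OX40L, had 179, 162, 183 and 205 CPM at 5 h and 1.83, 3.81, 3.48 and 2.07 CPM at 18 h, a fall of 6.02 ± 0.17 on the log2 scale.

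Sele, the leukocyte adhesion molecule E-selectin, had 184 to 274 counts in the 5 h libraries and at most 3 in those at 18 h, and the alarmin gene Il33 had 101 to 144 and at most 3. Nptx1 had 118 to 140 and at most 3, and its mean was higher at 0 h (33.4 CPM) than at 5 h (14.9 CPM). The gap junction gene Gja1, the SOCS-box gene Spsb1 and the metallothionein gene Mt2, a buffer of zinc, fell to 0.949%, 1.79% and 1.66% of their 5 h means. Gprc5c fell to 0.996%. Iqschfp and Schip1 overlap and count the same reads, so they are 1 observation, at 18.2 and 18.3 CPM at 5 h and 0.221 and 0.245 CPM at 18 h.

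Costimulatory ligands, which tell T cells that an antigen is dangerous, fell in part: 9 of 10 were tested, 4 fell and 1 rose (median -0.97). Cd40 had 1808, 1834, 1772 and 1758 CPM at 5 h and 193, 232, 188 and 216 CPM at 18 h, a fall of 3.11 ± 0.13 on the log2 scale. Cd83 fell to 4.14% of its 5 h mean. Cd86, a ligand of CD28, had 266 ± 26.1 and 177 ± 17.8 CPM, and Cd274, the inhibitory ligand PD-L1, 3818 ± 93.4 and 2661 ± 205 CPM, both within the fold limit (log2 fold changes -0.59 ± 0.12 and -0.52 ± 0.12). The call of Pdcd1lg2, which rose from 1.40 ± 0.621 to 2.97 ± 0.369 CPM, is lost without 5 h replicate 2 or 3 (log2 fold changes 0.99 and 0.84).

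The antimicrobial metabolic genes nitric oxide synthase and aconitate decarboxylase came down but stayed far above the unstimulated level. In the list of 10 genes for nitric oxide, arginine and itaconate, all tested, 7 fell and 1 rose (median -1.16), and with scaling to library totals 3 fell and 2 rose. Acod1, which makes itaconate, had 9310, 9424, 9709 and 9423 CPM at 5 h and 4478, 4480, 4440 and 4559 CPM at 18 h. The groups were tight and apart (log2 fold change -1.08 ± 0.14, adjusted p = 6.7e-08), and the 0 h mean was 6.00 CPM. Nos2 had 1455 ± 74.3 and 655 ± 44.1 CPM, and the calls of Acod1 and Nos2 are both lost with scaling to library totals. Ass1, which regenerates arginine from citrulline, rose, with 32.1, 28.2, 35.5 and 31.0 CPM at 5 h and 109, 122, 108 and 120 CPM at 18 h.

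In the eicosanoid pathway, 15 of 16 genes were tested, 4 fell and 2 rose (median -0.54), beside 14.3% and 15.9% of all genes. Ptgs2, the inducible cyclooxygenase, had 945, 852, 1011 and 1131 CPM at 5 h and 81.8, 92.8, 130 and 94.4 CPM at 18 h. Replicate 3 was the highest at 18 h, and the fall was 3.30 ± 0.18 on the log2 scale (adjusted p = 4.9e-16). Ptges, the inducible prostaglandin E synthase downstream of it, had 53.3 ± 1.96 and 103 ± 5.59 CPM, a log2 fold change of 0.95 ± 0.10 that passed the fold limit only with scaling to library totals among the alternatives. Of the listed prostaglandin receptor genes, Ptger4 fell to 29.2%, whereas Ptger2 rose from 1.49 ± 0.564 to 14.5 ± 1.48 CPM. The prostacyclin receptor gene Ptgir rose from 8.33 ± 0.548 to 38.8 ± 1.32 CPM.

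Interferon-induced genes were called in both directions. All 32 antiviral genes of the list were tested, and 5 fell, 6 rose and 21 did neither (median 0.23), which is near the shares over all genes (14.3% lower and 15.9% higher). Ifih1, the RNA sensor MDA5, was among those that fell, with 2998, 2782, 3001 and 3138 CPM at 5 h and 573, 600, 815 and 540 CPM at 18 h, the highest being replicate 3. Ifit1, which binds viral RNA caps, fell to 29.8% of its 5 h mean and Cmpk2, a mitochondrial nucleotide kinase, to 42.3%, the latter below the fold limit with scaling to library totals. Rsad2, the antiviral enzyme viperin, had 24332 ± 707 and 12280 ± 1295 CPM, just inside the limit (log2 fold change -0.99 ± 0.13), and it passed the limit with DESeq2, DESeq2's size factors, or without 5 h replicate 2, 18 h replicate 2 or 18 h replicate 3.

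Ifi44 rose, with 149, 119, 131 and 171 CPM at 5 h and 552, 571, 747 and 503 CPM at 18 h. The 18 h libraries were all more than 2 times above the 5 h libraries, with replicate 3 the highest (log2 fold change 2.06 ± 0.24, adjusted p = 1.2e-08). Irf7, the transcription factor that amplifies interferon production, had 741, 696, 740 and 747 CPM at 5 h and 1757, 1884, 1553 and 1724 CPM at 18 h. Bst2, which tethers budding virus, rose by 2.00 ± 0.24, the exonuclease gene Isg20 by 1.82 ± 0.19, and Oas3 by 1.23 ± 0.11 on the log2 scale. Among the 14 interferon-inducible GTPases, which attack the vacuoles of intracellular pathogens, 4 fell and 1 rose (median -0.65), and Gbp5 fell to 26.2% of its 5 h mean.

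Genes that kept a high level were named by a rule: over 4-fold above 0 h with an adjusted p under 0.05 at both 5 h and 18 h, and between the 2 times an adjusted p over 0.05 and a log2 fold change within 0.5 either way. There were 98 such genes, which were chosen on these libraries, so their lack of a change is the rule itself. Ordered by CPM per kilobase of transcript (RPKM) at 18 h, 15 led the list, and 9 of them are described here. AW112010, a transcript of immune cells, had 1149 RPKM at 5 h and 1431 at 18 h, and Gbp2, a GTPase with the microRNA Mir6381 annotated inside it, 1706 and 1419. Isg15, the ubiquitin-like modifier, had 890 and 1052 RPKM, Oasl2 403 and 319, and Usp18, which removes ISG15 and dampens the interferon receptor, 376 and 314. Oasl2 and Usp18 were only just over the p limit of the rule (adjusted p = 0.054 and 0.055, quasi-likelihood test). All 18 h libraries of Oasl2 were below all its 5 h libraries.

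In single libraries, Isg15 had 693, 694, 659 and 645 CPM at 5 h and 824, 856, 675 and 826 CPM at 18 h. The groups overlapped only through 18 h replicate 3 (log2 fold change 0.24 ± 0.14, adjusted p = 0.12). Gbp2 had 4186, 4214, 4345 and 4425 CPM at 5 h and 3347, 3587, 3962 and 3383 CPM at 18 h, so its groups did not overlap, although the test was not passed (adjusted p = 0.35). Clec4e, the receptor Mincle for mycobacterial glycolipid, had 1199, 1058, 1129 and 1366 CPM at 5 h and 1106, 1044, 1573 and 1094 CPM at 18 h, with replicate 3 the highest. Outside the interferon genes, the Fc receptor gene Fcgr4 (344 and 389 RPKM), Lacc1, a metabolic enzyme of macrophages (270 and 249), and Cxcl16 (205 and 207) kept their levels.

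MHC class I genes were mostly higher at 18 h by less than 2-fold. Of the 13 genes, all tested, 1 rose over 2-fold and none fell, while at any size 10 were higher and 2 lower at an adjusted p under 0.05, beside 35.9% and 33.2% of all genes (median 0.41). With library totals, 4 rose over 2-fold (median 0.68). H2-K1, a heavy chain, rose from 1226 ± 45.0 to 3173 ± 279 CPM, and B2m, the light chain, had 3816 ± 151 and 6016 ± 591 CPM (log2 fold change 0.66 ± 0.16). For MHC class II, 10 of 11 genes were tested, 1 fell and 2 rose (median 0.28), near the 14.3% and 15.9% of all genes. Ciita, the master regulator of class II genes, fell from 10.0 ± 1.42 to 4.45 ± 0.447 CPM, a call lost with scaling to library totals, whereas H2-Aa had 76.4 ± 8.03 and 72.2 ± 5.57 CPM.

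Genes of acute-phase and antimicrobial proteins mostly rose. All 15 were tested, and 9 rose and 2 fell (median 1.06). Saa3, the serum amyloid A of macrophages, had 481, 462, 440 and 471 CPM at 5 h and 6454, 5483, 4894 and 6440 CPM at 18 h. Replicate 3 was the lowest at 18 h and still more than 10 times above all 5 h libraries, and the log2 fold change was 3.65 ± 0.11 (SE, adjusted p = 3.1e-22). Marco, a scavenger receptor for bacteria, had 5.01, 3.67, 4.44 and 3.19 CPM at 5 h and 79.0, 61.4, 63.5 and 77.6 CPM at 18 h. Cfb, complement factor B, had 152, 154, 145 and 149 CPM at 5 h and 938, 979, 901 and 989 CPM at 18 h, and complement C3 rose by 1.06 ± 0.10 on the log2 scale.

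The haemoglobin scavenger haptoglobin (Hp) rose from 3.00 ± 0.298 to 13.6 ± 2.40 CPM, Lcn2, which captures bacterial siderophores, from 25.8 ± 3.16 to 64.8 ± 7.69 CPM, and Fpr1, a receptor for bacterial formyl peptides, from 16.6 ± 1.29 to 92.2 ± 3.33 CPM. Ptx3, the long pentraxin, went the other way, from 34 to 48 counts in the 5 h libraries to at most 1 count in those at 18 h.

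Most antioxidant genes of the list rose. Of 14 listed targets of NRF2, the transcription factor of the oxidative stress response, 13 were tested, 9 rose and none fell (median 1.27), also with scaling by DESeq2's size factors, and 12 rose with scaling to library totals. Hmox1, which degrades haem to biliverdin, iron and carbon monoxide, had 241, 255, 240 and 225 CPM at 5 h and 2656, 2816, 2399 and 2760 CPM at 18 h. The 5 h level was below the 447 CPM at 0 h, so the rise of 3.47 ± 0.13 on the log2 scale (adjusted p = 3.4e-20) started from a dip. The subunits of glutamate-cysteine ligase, the first enzyme of glutathione synthesis, rose by 2.34 ± 0.10 (Gclm) and 2.08 ± 0.12 (Gclc), and sulfiredoxin (Srxn1) by 2.15 ± 0.11. Prdx1 had 3308 ± 84.4 and 6489 ± 248 CPM, just inside the limit (0.97 ± 0.11), and Txnrd1 323 ± 11.1 and 302 ± 14.9 CPM.

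Genes of the integrated stress response rose in part. Of 22 listed ATF4 targets and amino acid synthesis genes, 18 were tested, 8 rose and 2 fell (median 0.89), and with scaling to library totals none fell. Atf4 itself rose from 134 ± 6.20 to 303 ± 6.49 CPM. Ddit3, which encodes CHOP, had 10.2, 9.79, 8.21 and 8.98 CPM at 5 h and 115, 116, 107 and 112 CPM at 18 h, and its annotation overlaps Mbd6 and Mars1. Its log2 fold change was 3.60 ± 0.12 (SE, adjusted p = 2.5e-21). Trib3, a pseudokinase induced by CHOP, rose from 0.803 ± 0.377 to 15.9 ± 2.21 CPM, and Sesn2, a sestrin that restrains mTORC1, from 3.95 ± 0.582 to 37.0 ± 1.91 CPM. Psat1, an enzyme of serine synthesis, fell from 115 ± 3.61 to 51.9 ± 3.72 CPM, a call lost with scaling to library totals.

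Gdf15, a stress-induced cytokine, had 0.228, 0.245, 0.666 and 0.709 CPM at 5 h and 20.3, 21.5, 12.7 and 24.5 CPM at 18 h, replicate 3 being the lowest (log2 fold change 5.38 ± 0.43). Few genes of endoplasmic reticulum chaperones and the unfolded protein response were called: of 20 genes, all tested, 2 rose and none fell (median 0.09), Ddit3 and Herpud1, a factor of ER-associated degradation. Hspa5, the chaperone BiP, had 1782 ± 32.0 and 1489 ± 48.2 CPM.

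Among the 15 steepest rises were genes that were far below their 0 h mean at 5 h. Tsc22d3, which encodes the anti-inflammatory leucine zipper protein GILZ, had 2.73, 2.57, 3.00 and 1.89 CPM at 5 h and 50.5, 56.1, 50.3 and 45.8 CPM at 18 h. All 18 h libraries were above the mean of 28.5 CPM at 0 h, and the log2 fold change was 4.30 ± 0.18 (SE, adjusted p = 2.8e-19). Tmem86a (50.1, 2.92 and 79.5 CPM at 0, 5 and 18 h), Ypel2 (15.4, 0.752 and 18.0 CPM) and Jade1 (15.2, 0.909 and 18.4 CPM) had the same shape. Siglece, an inhibitory receptor for sialic acids, had no such dip, with 1.82, 1.96, 2.11 and 2.13 CPM at 5 h, 50.2, 44.4, 41.4 and 54.0 CPM at 18 h and a mean of 1.00 CPM at 0 h. Naip1, a receptor of the inflammasome family, had at most 1 count in the 5 h libraries and a mean of 13.0 ± 2.22 CPM at 18 h, but the Naip genes are close copies and their reads may be shared. The kinase gene Wnk2 rose from 0.431 ± 0.389 to 34.8 ± 5.05 CPM.

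Late genes were within 2-fold of their 0 h mean at 5 h, called higher at 18 h and at 10 CPM or more at 18 h. There were 407 such genes, and those named are among the 10 with the largest rises. The set rests on the composition scaling between 0 h and 5 h and was not recounted with library totals. Cd300e, an activating receptor of the CD300 family, had 0.683, 1.10, 1.11 and 0.946 CPM at 5 h and 17.6, 20.4, 17.2 and 18.6 CPM at 18 h. The inhibitory receptor of the same family, Cd300lf, went from 10.6 ± 1.94 to 173 ± 17.5 CPM, and its annotation overlaps Rab37. Spic, the transcription factor of red pulp macrophages that handle haem iron, had 4.55, 3.43, 3.11 and 5.67 CPM at 5 h and 33.0, 32.0, 37.9 and 35.3 CPM at 18 h (log2 fold change 3.04 ± 0.20). Hmox1 was in this set as well, as were the acetyl-CoA synthetase gene Acss2 (2.26 ± 0.333 to 36.2 ± 3.56 CPM), the anthrax toxin receptor gene Antxr1 and the heat shock gene Hspa1a, which has a near-identical copy.

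Lipid handling changed at a few genes. Of 14 LXR targets and lipid export genes, all tested, 4 rose and none fell (median -0.08, and 0.19 with library totals). Nr1h3, the gene of LXRα, rose from 12.3 ± 1.69 to 91.7 ± 12.9 CPM, but it overlaps Acp2, which rose from 268 ± 8.20 to 1341 ± 10.7 CPM, and the reads of the pair may not be separable. The cholesterol exporter gene Abcg1 rose by 1.09 ± 0.08 and the desaturase gene Scd2 by 2.71 ± 0.11 on the log2 scale, Scd2 returning to 291 CPM from 44.5 CPM at 5 h, beside 293 CPM at 0 h. Apoe had 2159 ± 139 and 1161 ± 77.8 CPM (log2 fold change -0.90 ± 0.13). In cholesterol synthesis, 4 of 23 genes fell and 3 rose (median -0.33), again near the shares over all genes, and with library totals 2 fell and the median was -0.06. Mvd, an enzyme of the mevalonate pathway, rose from 2.84 ± 0.586 to 11.3 ± 1.41 CPM.

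Genes of energy metabolism were called in both directions, beside 14.3% lower and 15.9% higher over all genes. The falls in the first 2 lists below were near that share. Of 23 tested genes of glycolysis and HIF targets, out of 24, 3 fell and 6 rose (median 0.24), with log2 fold changes from -1.93 to 2.87. Hif1a, the hypoxia factor that drives glycolysis in activated macrophages, fell to 31.6% of its 5 h mean, Pfkp, a phosphofructokinase, to 26.3%, and Hk2, hexokinase 2, to 47.5%, the last lost with library totals. Vegfa rose from 26.2 ± 2.63 to 111 ± 13.0 CPM, and Aldoa had 683 ± 25.3 and 1104 ± 95.3 CPM. Of 20 genes of the tricarboxylic acid cycle, 4 fell and none rose, the isocitrate dehydrogenase genes Idh2 (37.7 to 14.3 CPM) and Idh3a (31.6 to 13.0 CPM) among them. The list median changed sign with scaling, from -0.21 to 0.05 with library totals. None of 26 tested respiratory chain subunits, out of 27, passed the fold limit, and at an adjusted p under 0.05 of any size 8 were lower and 5 higher (median -0.09, and 0.17 with library totals).

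Most genes of mitosis fell. Of 27 genes of mitosis, all tested, 20 fell and none rose (median -2.00), and of 30 genes of DNA replication, 13 fell and 3 rose (median -0.77). Top2a, the topoisomerase of dividing cells, had a mean of 171 CPM at 0 h, 62.2, 64.6, 68.5 and 64.8 CPM at 5 h and 8.70, 8.20, 9.22 and 6.04 CPM at 18 h. The groups were far apart (log2 fold change -3.02 ± 0.14, adjusted p = 3.9e-18). Ube2c, a ubiquitin ligase partner of the mitotic exit machinery, fell to 1.91% of its 5 h mean, the ribonucleotide reductase gene Rrm2 to 5.44% and the helicase gene Mcm5 to 31.2%. Fewer cells of a kind, such as dividing cells, and less RNA per cell cannot be told apart in these bulk samples.

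In the replication list, E2f1, a driver of S phase, rose from 10.1 ± 2.11 to 28.3 ± 3.91 CPM, the licensing factor gene Cdc6 from 0.730 ± 0.216 to 1.58 ± 0.495 CPM, and the chromatin assembly gene Chaf1a from 4.44 ± 0.976 to 9.14 ± 1.06 CPM. The call of Cdc6 is lost without 5 h replicate 1 or 18 h replicate 3 (log2 fold change 0.93 in both). That of Chaf1a is lost with DESeq2's size factors and without 5 h replicate 1, 5 h replicate 3 or 18 h replicate 4 (0.974 to 0.999). In the mitosis list, the spindle gene Tpx2 was within the limit, with 48.0 CPM at 0 h, 111 ± 8.28 at 5 h and 152 ± 16.6 at 18 h. Of 21 genes of ribosome biogenesis, 10 fell and none rose (median -0.90), and 5 fell with scaling to library totals. Noc4l fell to 18.7% of its 5 h mean, and Npm1, the nucleolar chaperone nucleophosmin, to 42.4%, a call lost with that scaling.

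Among 28 macrophage surface and scavenger receptors, all tested, 11 fell and 3 rose (median -0.60). Mrc1, the mannose receptor CD206, had 939, 956, 984 and 890 CPM at 5 h and 58.4, 57.6, 74.6 and 53.6 CPM at 18 h. Its 5 h libraries were near the 1095 CPM at 0 h, so this loss came after 5 h (log2 fold change -3.95 ± 0.14, adjusted p = 4.3e-21). Cd14, the coreceptor of TLR4, fell from 1583 ± 54.2 to 290 ± 27.9 CPM. Cd163, the haemoglobin scavenger receptor, fell from 14 to 23 counts in the 5 h libraries to at most 2 in those at 18 h, after a mean of 13.2 CPM at 0 h.

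Adgre1, the marker F4/80, went the other way, with 1653, 1730, 1771 and 1658 CPM at 5 h and 3807, 3665, 3897 and 3730 CPM at 18 h. Its groups did not overlap (log2 fold change 1.15 ± 0.12, adjusted p = 6.9e-10 for Adgre1). Siglec1, the sialoadhesin CD169, rose from 118 ± 9.84 to 484 ± 31.8 CPM. The identity genes Csf1r, the receptor of CSF-1, and Itgam (CD11b) had 1274 ± 95.7 and 1149 ± 66.8 CPM, and 1076 ± 31.2 and 800 ± 26.3 CPM, both within the fold limit. Of 30 lysosomal proteins, 4 rose and 1 fell (median 0.26), and the rises were near the 15.9% of all genes that rose. With library totals, 7 rose. The cathepsin gene Ctsz and the sialidase gene Neu1 rose by 1.15 ± 0.07 and 1.83 ± 0.12 on the log2 scale, and Ctsb had 14572 ± 714 and 13660 ± 460 CPM.

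In BMDM-Nur77-KO, 1612 genes (14.3%) were lower and 1611 (14.3%) were higher at 18 h than at 5 h, and this change shares no library with that of BMDM-WT. Of the 1608 genes that fell in BMDM-WT, 1269 also fell in the knockout, of the 1791 that rose, 1290 also rose, and 3 genes were called in opposite directions. Pearson's r of both changes across the 11279 genes was 0.90, which describes these genes, since genes are not independent replicates. The difference between the changes had an adjusted p under 0.05 for 1518 genes (13.5%), 842 (7.47%) with the lower value in BMDM-WT and 676 (5.99%) with the higher. With only the 16 libraries of these groups, 839 genes passed. With scaling to library totals, 603 genes were below 0 and 1092 above 0, so which side was larger depends on the scaling.

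**Figure D4:**
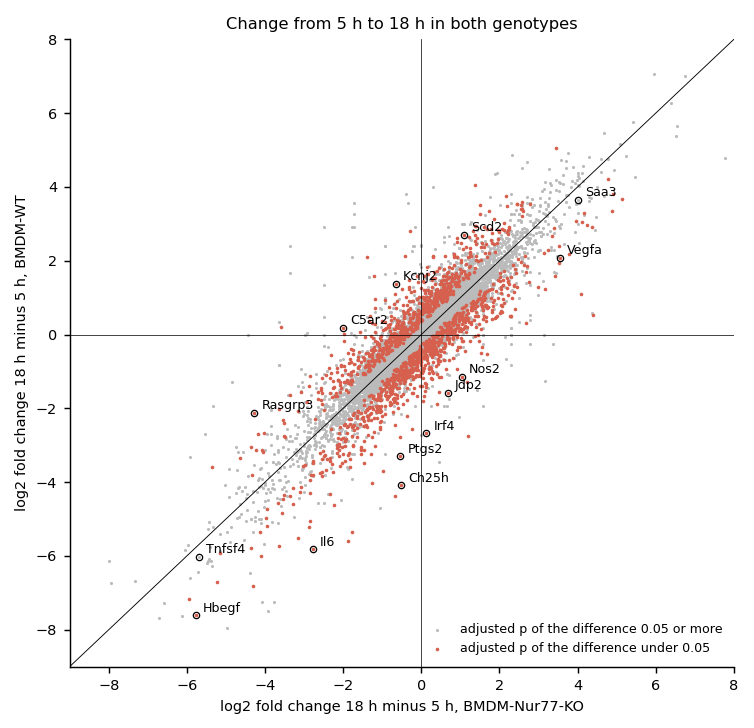
Log2 fold change from 5 h to 18 h in BMDM-WT (y axis) against BMDM-Nur77-KO (x axis) for 11279 genes, with the line of equal change. Red points have an adjusted p of the difference under 0.05 (1518 genes), and Il6, Ptgs2, Ch25h, Irf4, Jdp2 and Nos2 lie below the line, that is, they went down more in BMDM-WT or went down there and not in the knockout.

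The decline of cytokine genes was steeper in BMDM-WT. Of the 20 cytokine genes tested, 15 had a difference below 0, beside 7.47% of all genes. So had 14 of the 22 listed feedback genes and 9 of 20 chemokines. Such differences were not particular to lists that fell. They were also found for 8 of 18 ATF4 and amino acid genes, 6 of 13 MHC class I genes and 11 of 32 antiviral genes. Cholesterol synthesis went the other way, with 8 of 23 genes above 0 and 0 below. These counts of differences per list were not repeated with library totals. Ch25h, which makes 25-hydroxycholesterol, showed the widest difference by the naming rule. In BMDM-WT it had 48.7, 42.5, 44.2 and 55.3 CPM at 5 h and 2.93, 2.48, 2.78 and 2.94 CPM at 18 h, and in the knockout 25.9 CPM at 5 h and 18.1 CPM at 18 h on average. The difference was -3.58 ± 0.23 on the log2 scale (adjusted p = 2.1e-12). For Il6 it was -3.05 ± 0.30 (1.1e-07 adjusted p, quasi-likelihood test), with knockout means of 358 and 52.3 CPM, and for Ptgs2 -2.76 ± 0.24, with knockout means of 1124 and 773 CPM.

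Nos2 went in opposite directions, with 1455 and 655 CPM in BMDM-WT and 919 and 1883 CPM in the knockout (difference -2.19 ± 0.20, adjusted p = 4.5e-09). Jdp2, a dimerization partner of AP-1, also split, with 81.7 and 27.4 CPM in BMDM-WT and 67.3 and 107 CPM in the knockout. Irf4, Fzd1 and Mycl were among the 10 widest differences on this side too (-2.80 ± 0.48, -2.39 ± 0.20 and -2.24 ± 0.32).

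On the other side, C5ar2, a second receptor of complement C5a, had 4.10, 2.69, 5.99 and 4.26 CPM at 5 h and 5.49, 4.96, 5.13 and 3.88 CPM at 18 h in BMDM-WT, with the groups overlapping. It had 7.06 and 1.77 CPM in the knockout, a difference of 2.19 ± 0.30 (adjusted p = 4.4e-06). The potassium channel gene Kcnj2 rose in BMDM-WT from 6.60 ± 0.791 to 17.2 ± 2.20 CPM, with 15.1 and 9.59 CPM in the knockout, and Rasgrp3, a Ras activator, had 5.91 and 1.34 CPM beside 14.9 and 0.761 CPM. Gcnt1, which branches glycans, had a difference of 1.77 ± 0.24, and its rise in BMDM-WT (1.09 ± 0.17) is within the fold limit without 5 h replicate 2 or 18 h replicate 3 (0.94 and 0.98). In the lists of NRF2 targets and of acute-phase genes, 9 genes each rose in the knockout as well, and 1 gene of each had a difference below 0, a share near the 7.47% of all genes.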

How the data were processed

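RNA was sequenced with strand-specific KAPA mRNA HyperPrep libraries. Per the methods of the study, reads were aligned to mm10 with HISAT2 (2.1.0 in the submitters' processing notes, which also name CASAVA 1.8.2), kept at a mapping quality over 15, and counted with HOMER on RefSeq transcripts. Whether counting used the strand is not stated, so overlapping genes cannot be told apart with certainty. The deposited table holds expected counts per transcript, not normalized by the authors, in which each mate adds 0.5. These were rounded to whole numbers.

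From these, 1 transcript per gene was kept (highest mean count), leaving 25067 genes. 93 transcripts with no gene name (0.233 to 1.37% of counts) stayed out. The 8 libraries compared held 10206035 to 12418867 counts. A gene was tested when any of the 8 groups had a mean above 1 RPKM (11279 genes). The fit was edgeR's quasi-likelihood test (edgeR 4.0.16, R 4.3.3) with TMM scaling, 8 group means over all 32 libraries and Benjamini-Hochberg adjustment. All groups shared 1 estimate of the spread of each gene. Calls needed a 2-fold change and an adjusted p under 0.05, and genotype differences the p limit only. Values after ± are SDs for CPM and SEs for log2 fold changes. The script was tested on simulated data.

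Alternatives were DESeq2 1.42.0, other scalings, filters and fold limits, all transcripts, fewer libraries, a replicate block and leaving out each library. Genes were named as the 15 largest changes each way (at least 10 CPM, no overlap), the 15 persisting and 10 late genes defined in the text, the 10 largest genotype differences each way, the Nr4a genes and members of the 26 lists, and some genes are not reported here. The members and lists were chosen with earlier results of these data known. Promoters came from RefSeq (GRCm38.p6).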

Additional observations from a re-analysis of the deposited data

Results flagged for a closer look

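Among 38 genes with values given for every library (76 groups of 4), 3 single libraries lay far from the other 3 of their group, and chance gives about 1 in 20 groups. Ccl5 was lowest in 18 h replicate 3 with 3355 CPM, Clec4e was highest in the same library with 1573 CPM, and Irf7 was lowest in 5 h replicate 2 with 696.5 CPM.

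For 17 of these genes the genotypes differed in the change from 5 h to 18 h by edgeR's quasi-likelihood test of the difference, with adjusted p-values under 0.05 (values are log2, wild type minus knockout). Of all genes tested, 13.5% had such a difference, and Ch25h, Il6, Ptgs2 and C5ar2 were among those printed because their differences were the widest, so the count is partly set by that choice. The widest differences below 0 were those of Ch25h (-3.58), Il6 (-3.05) and Ptgs2 (-2.76). Hbegf (-1.83), Cd40 (-1.58), Cxcl2 (-1.29), Olr1 (-1.23), Il1b (-1.22), Spic (-1.08), Tnf (-1.05) and Cxcl10 (-1.03) followed. Mmp13 (-0.90), Isg15 (-0.87), Tnfaip3 (-0.87), Irf7 (-0.81) and Acod1 (-0.63) differed by less. C5ar2 (2.19) was the one above 0. Spic rose in both genotypes, from 5.58 to 96.0 CPM in the knockout.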

How the results depend on the processing

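Of 2867 alternative values for 169 named genes, 2838 kept direction and side of the limits, 18 lost the call, 11 gained it and 0 reversed. For 70 genotype differences, 1604 of 1679 values kept the call and 75 lost it, with no reversal, and 861 of 884 list counts stayed within 1.5 times. With every transcript as deposited, 6043 were called (2883 lower, 3160 higher) and 3066 differed between genotypes (1596 below and 1470 above 0). In that table, 614 were induced at 1 h, of which 54 rose later, and 3351 at 5 h in the knockout, of which 1420 fell and 206 rose. A log2 limit of 0.58 gave 5639 calls (2659 lower, 2980 higher), and no limit 7798 (3747 lower, 4051 higher) and 1146 genes induced at 1 h, of which 709 fell and 216 rose. The fit with only the libraries compared gave 839 genotype differences (534 below, 305 above 0). Library totals gave 603 differences below and 1092 above 0, and 1141 genes induced at 5 h in the knockout, of which 476 fell. Leaving out each library gave 3349 to 3483 calls (1592 to 1682 lower, 1756 to 1805 higher), 1230 to 1992 differences (698 to 1043 below, 507 to 949 above 0), 367 to 393 genes induced at 1 h (212 to 225 lower, 24 to 29 higher later) and 1691 to 1862 at 5 h in the knockout (739 to 790 lower, 128 to 137 higher). The cause was not tested for any of these, except that looser limits and more transcripts tested admit more calls. DESeq2 and edgeR shared 3298 of the calls. Same-numbered libraries of BMDM-WT did not deviate together (correlations of -0.079 to 0.062, 0 of 4 matching best). In BMDM-Nur77-KO the correlations were -0.70 to 0.32. These values cannot show whether same-numbered wells shared an animal or a day. The replicate block gave 3395 calls (1610 lower, 1785 higher) and 1390 differences. No fold is given for genes with at most 3 counts in every library of a group.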
